A study of Mus musculus with 24 samples.

Results

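The direct comparison of IL-4 with LPS and IFNg after 1 h of stimulation is described here for mouse bone marrow-derived macrophages. It sets 3 libraries of cells given IL-4 against 3 libraries of cells given bacterial lipopolysaccharide (LPS) together with interferon gamma (IFNg), out of 24 libraries in the series. A group of 3 unstimulated libraries at 1 h served to say in which direction each stimulus had moved a gene. All cells came from wild-type C57BL/6 mice and had been cultured to day 7 with CSF-1 at 20 ng/mL, a cytokine that macrophages need to grow. IL-4 was given at 20 ng/mL and IFNg at 50 ng/mL. The labels name 20 or 100 ng/mL for LPS without saying which dose was used where. IL-4 and LPS with IFNg at 18 h, again 3 libraries each, were used to ask whether the early difference was still there. All genes with enough counts in the files were compared, 12765 of 43629 identifiers.

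IL-4 binds a receptor made of the IL-4 receptor alpha chain and the common gamma chain, and Janus kinases on that receptor phosphorylate STAT6, which enters the nucleus. LPS is bound by CD14, MD-2 and TLR4 and acts through the adaptors MyD88 and TRIF on NF-kappaB, on MAP kinases and on interferon regulatory factors. IFNg acts through its own receptor and the kinases JAK1 and JAK2. Both cytokine pathways are restrained by the SOCS proteins, whose genes are themselves targets of STAT factors. In macrophages, LPS with IFNg is known for inflammatory cytokines, chemokines and nitric oxide synthase, and IL-4 for arginase, lectins and chitinase-like proteins.

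Total counts of the 9 libraries at 1 h ran from 4902540 to 7266485. Levels are given as CPM, the library's counts scaled by TMM to a common total, and are compared only between libraries for the same gene. The summed CPM of 10 macrophage markers lay at 17500 to 20100 with IL-4, 17300 to 19900 with LPS and IFNg and 16700 to 19700 in unstimulated cells. Of 6 T cell markers, Cd3e had no count in any of these groups, while Lck, a kinase singled out here after its values were seen, lay at 0.172 to 0.497 CPM with IL-4, 12.9 to 15.2 CPM with LPS and IFNg and 0.138 to 0.293 CPM unstimulated. Their sum was 4.93 to 7.46 CPM with IL-4, 16.3 to 22.6 with LPS and IFNg and 4.4 to 8.62 unstimulated, and the 5 dendritic cell markers summed to 1.82 to 3.44 CPM with IL-4, 5.02 to 5.92 with LPS and IFNg and 2.64 to 4.83 unstimulated. The 7 mast cell, basophil and eosinophil markers summed to 4.93 to 5.68 CPM with IL-4, 5.02 to 5.55 with LPS and IFNg and 7.12 to 9.83 unstimulated, so both stimulated groups lay below the unstimulated one without overlap. The 8 neutrophil markers summed to 171 to 211 CPM with IL-4, 197 to 263 with LPS and IFNg and 162 to 202 unstimulated. The part of these markers in the results below was not tested. The first principal component of the 9 libraries took 73.7% of the variance and set LPS with IFNg apart from both other groups; the next took 9.3% and separated IL-4 from unstimulated cells. The labels do not say whether replicates were separate mice or cultures, so p-values measure the spread between libraries. That spread was estimated from all 24 libraries of the series, not from those at 1 h alone. In bulk RNA fewer cells of a type and less RNA per cell cannot be told apart.

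At 1 h the programs differed in 3879 of 12765 tested genes, 30.4%, at an adjusted p below 0.05 (edgeR quasi-likelihood test with Benjamini-Hochberg adjustment). Of these, 1893 genes (14.8%) were higher with IL-4 than with LPS and IFNg and 1986 (15.6%) were lower. At least 2-fold differences were unevenly shared, with 557 genes (4.36%) higher and 728 (5.7%) lower with IL-4. Set against unstimulated cells, IL-4 had moved 829 genes (6.49%), 411 up (3.22%) and 418 down (3.27%), and LPS with IFNg had moved 3749 (29.4%), 1872 up (14.7%) and 1877 down (14.7%). The 3 IL-4 libraries lay wholly above or below the 3 LPS with IFNg libraries in 5696 genes (44.6%). The median of all tested genes lay near 0 by construction of the scaling. Scaling by library totals alone moved it up by 0.27 on the log2 scale and gave 5505 higher and 1087 lower genes; the counts for LPS with IFNg against unstimulated cells became 1089 up and 5248 down.

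**Figure D1:**
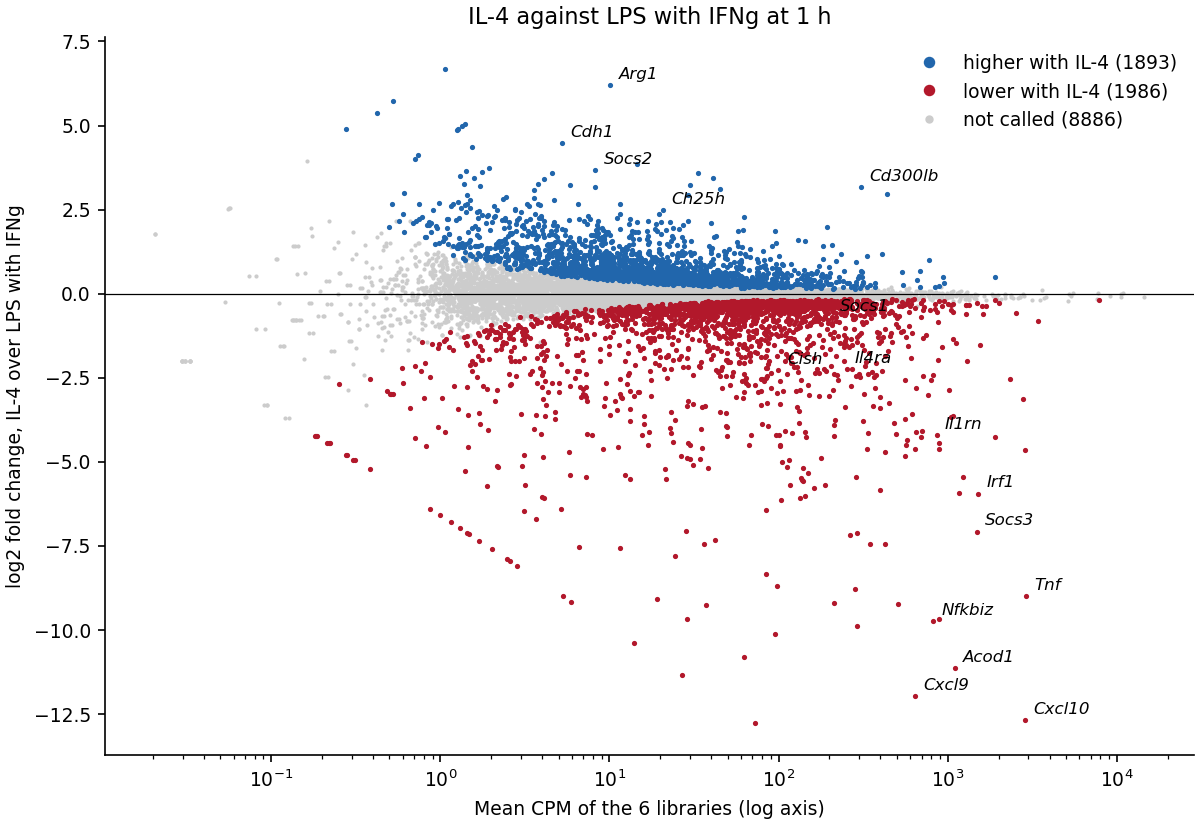
Log2 fold change of IL-4 over LPS with IFNg at 1 h (y axis) against the mean CPM of the 6 libraries (x axis, log scale), 1 point per tested gene. The 1893 blue genes were called higher and the 1986 red genes lower with IL-4; the red genes reach far larger differences, with Cxcl10 at -12.67, and points of genes with no count in a group are fitted values and no bound.

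The genes highest with IL-4 relative to LPS with IFNg were genes that IL-4 had raised, genes that LPS with IFNg had lowered, or both. Arg1, which encodes arginase 1 (chromosome 10, 24915221 to 24927484, GRCm38), had 18.5, 20.0 and 21.5 CPM with IL-4, 0.37, 0.398 and 0 CPM with LPS and IFNg and 0.276, 0.293 and 0.375 CPM in unstimulated cells. All 3 IL-4 libraries stood far above the other 6, which overlapped one another. The log2 fold change of IL-4 over LPS with IFNg was 6.20 ± 0.84 (SE, n = 3 each, adjusted p = 3.08e-14), the largest among called genes whose groups did not overlap and whose 6 libraries averaged 5 CPM or more. Cdh1, the gene of the adhesion protein E-cadherin, had 11.7, 8.09 and 10.3 CPM with IL-4 against 0.37, 0.597 and 0.358 CPM with LPS and IFNg, where unstimulated cells had 0.414, 0.293 and 0.75 CPM. Its log2 fold change was 4.47 ± 0.56 (adjusted p = 1.49e-11), and the IL-4 libraries again stood alone. Socs2, an inhibitor of cytokine receptor signalling, had 16.6, 11.5 and 17.9 CPM with IL-4, 1.29, 0.796 and 1.43 CPM with LPS and IFNg and 0.828, 0.88 and 1.5 CPM unstimulated, a log2 fold change of 3.68 ± 0.38 (adjusted p = 5.92e-12). Tmem26, a transmembrane protein gene, had 53.7, 45.3 and 56.2 CPM with IL-4 against 6.1, 8.36 and 6.09 CPM with LPS and IFNg and 12, 8.8 and 12.7 CPM unstimulated. Here LPS with IFNg had also lowered the gene slightly, by a log2 fold change of -0.70 ± 0.22 (adjusted p = 0.0116), a call lost when LPS with IFNg replicate 1 or 3 or unstimulated replicate 1 was left out.

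In Rhov, Id1, Smad7, Zfp623 and Zfp553, also at the top of the order, the unstimulated level lay near the IL-4 level. Others there, such as Cnr2, Plk3, Cd300lb and Ch25h, were raised by IL-4 over unstimulated cells and are described below. Rhov, an atypical small GTPase, had 24.9, 26.2 and 31 CPM with IL-4, 2.22, 0.796 and 2.51 CPM with LPS and IFNg and 37.3, 34 and 41.8 CPM unstimulated. IL-4 libraries were slightly below the unstimulated ones (log2 fold change -0.46 ± 0.13, adjusted p = 0.0196), a call lost without IL-4 replicate 1 or 2 or unstimulated replicate 1 or 3, and the direct difference of 3.85 ± 0.30 came with a log2 fold change of -4.31 ± 0.30 for LPS with IFNg over unstimulated cells. Id1, an inhibitor of basic helix-loop-helix factors and a target of BMP signalling, had 68.1, 60.3 and 55.8 CPM with IL-4, 5.55, 3.78 and 5.74 CPM with LPS and IFNg and 40.2, 45.6 and 45.9 CPM unstimulated. Its log2 fold change with IL-4 over unstimulated cells, 0.49 ± 0.15, missed the threshold (adjusted p = 0.0511) and passed it with the replicate number as a block (adjusted p = 0.00128). Smad7, an inhibitor of TGF-beta signalling, and the zinc finger genes Zfp623 and Zfp553 were likewise near the unstimulated level with IL-4, with log2 fold changes over unstimulated cells of -0.37, 0.36 and 0.04, none of them called. With LPS and IFNg all 3 fell, with log2 fold changes of -3.04, -2.86 and -3.14.

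Cd300lb, an activating receptor of myeloid cells, had 549, 516 and 583 CPM with IL-4 against 62.5, 59.1 and 62.7 CPM with LPS and IFNg. Unstimulated cells had 375, 351 and 400.3 CPM, so the 3 groups did not overlap and stood in the order IL-4, unstimulated, LPS with IFNg. The direct log2 fold change was 3.16 ± 0.07 (adjusted p = 3.35e-24). Klhl42, a kelch protein gene, had a direct log2 fold change of 2.66 ± 0.30.

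**Figure D2:**
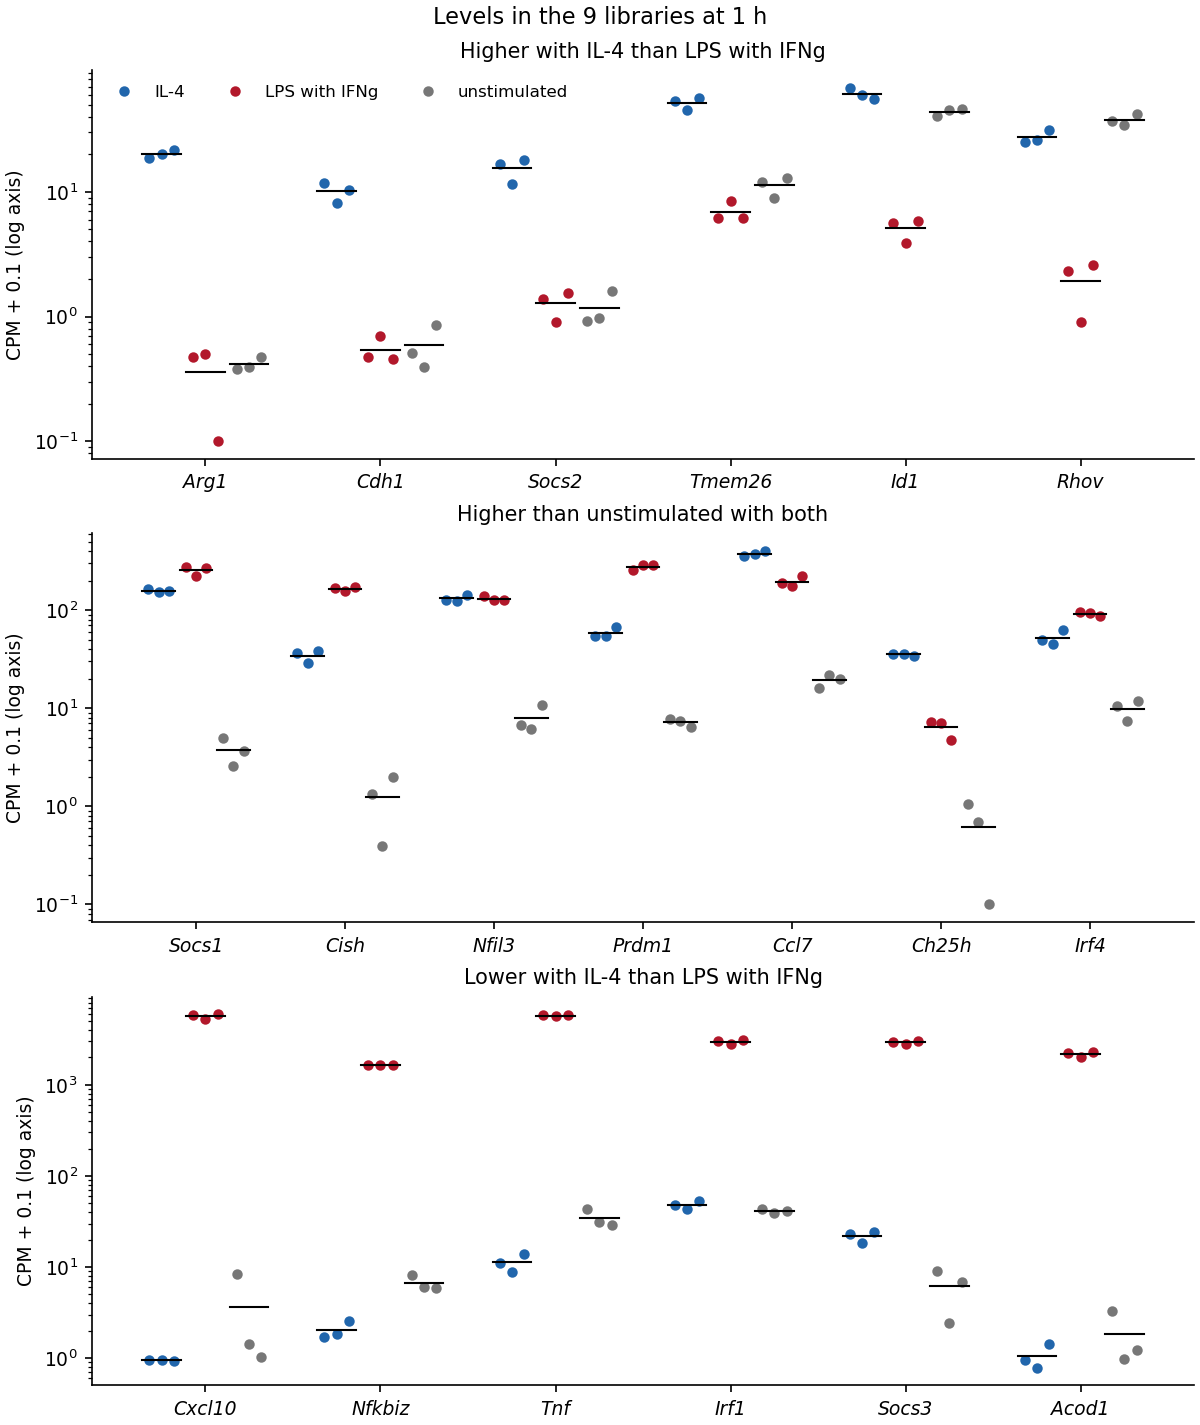
CPM plus 0.1 on a log axis in each of the 9 libraries at 1 h, with IL-4 left, LPS with IFNg in the middle and unstimulated right for every gene, and a black bar at each mean (n = 3). In the top panel IL-4 libraries stand far above the rest for Arg1, Cdh1 and Socs2, and LPS with IFNg libraries far below the rest for Id1 and Rhov; in the lowest panel the LPS with IFNg libraries exceed all others.

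The genes furthest lower with IL-4 than with LPS and IFNg included several chemokine and cytokine genes. Cxcl10, a chemokine gene induced by interferons (chromosome 5, 92346638 to 92348889), had 0.863, 0.861 and 0.828 CPM with IL-4, 5821, 5296 and 5961 CPM with LPS and IFNg and 8.28, 1.32 and 0.937 CPM unstimulated. Unstimulated replicate 1 was several times higher than the other two, and all unstimulated libraries were above all IL-4 libraries. The direct log2 fold change was -12.67 ± 0.56 (adjusted p = 2.09e-25). Art3, an ADP-ribosyltransferase gene, overlaps Cxcl10 on the opposite strand and had no count with IL-4 against 140.0, 137 and 157 CPM with LPS and IFNg, at least 964-fold lower with IL-4 if the IL-4 group is set at 3 counts in all. Whether counting used the strand is not given in the sources used here, so reads of Art3 and Cxcl10 cannot be told apart.

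Among the other chemokines, Cxcl9 had 0.493, 0 and 0.331 CPM with IL-4 against 1316, 1237 and 1287 CPM with LPS and IFNg, and Cxcl2 had 1.97, 2.07 and 2.49 CPM with IL-4 against 1764, 1638 and 1901 CPM with LPS and IFNg. For both, the LPS with IFNg libraries lay close together and no IL-4 library came near them. Cxcl1, a neutrophil attractant like Cxcl2, had 3 counts over the IL-4 group, a ratio of LPS with IFNg to IL-4 of 1269 with an exact 95% interval of 434 to 6158. Acod1, whose enzyme makes itaconate, had 0.863, 0.689 and 1.33 CPM with IL-4 against 2249, 2020.1 and 2324 CPM with LPS and IFNg (log2 fold change -11.14 ± 0.44). Gbp2b, a guanylate-binding protein of the interferon response, had 2.34, 1.21 and 1.33 CPM with IL-4 against 1008, 981 and 1075 CPM with LPS and IFNg and 2.07, 1.03 and 1.87 CPM unstimulated. Its IL-4 and unstimulated libraries overlapped. Cxcl11 had 1 count over the IL-4 group and 130.2, 112 and 135 CPM with LPS and IFNg, a ratio of 2515 (exact 95% interval 451 to 99394); these floors and intervals cover counting error only.

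Cytokine genes behaved alike. Tnf had 11, 8.78 and 13.9 CPM with IL-4, 5794, 5649 and 5848 CPM with LPS and IFNg and 43.2, 31.4 and 29.1 CPM unstimulated, so that the 3 groups stood apart with IL-4 lowest (direct log2 fold change -9.00 ± 0.14, adjusted p = 3.53e-28). Il1b had 0.863, 1.72 and 1.33 CPM with IL-4 against 553, 427 and 719 CPM with LPS and IFNg, and Il1a had 0.37, 0.517 and 1.33 CPM with IL-4 against 424, 401 and 451 CPM with LPS and IFNg. Il12b, a subunit of IL-12 and IL-23, had 2 counts over the IL-4 group, and LPS with IFNg exceeded it by a ratio of 741 (exact 95% interval 205 to 6126). Lif, an IL-6 family cytokine, had 1 count with IL-4 and a ratio of 1153 (206 to 45586). The genes named for the largest direct differences, here Il1a, Il12b and Lif, had to show no overlap of these groups, so their lack of overlap is no result. Tnf and Il1b, named by other rules, did not overlap either, as was so for 44.6% of all genes. Sele, the gene of the adhesion molecule E-selectin, had no count with IL-4 and 50.1, 48.3 and 62.2 CPM with LPS and IFNg, at least 358-fold lower with IL-4. Mir155hg, the host transcript of microRNA 155, was at least 186-fold lower with IL-4 in the same sense. Nos2, inducible nitric oxide synthase, had no count with IL-4 or in unstimulated cells and 5.73, 4.58 and 5.2 CPM with LPS and IFNg at this early time.

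Rnd1, a small GTPase, and Nfkbiz, an atypical inhibitor protein of NF-kappaB, were among the largest differences too. Rnd1 had 0.863, 0.344 and 0.497 CPM with IL-4 against 606, 503 and 641 CPM with LPS and IFNg. Nfkbiz had 1.6, 1.72 and 2.49 CPM with IL-4, 1639, 1643 and 1647 CPM with LPS and IFNg and 8.01, 5.87 and 5.81 CPM unstimulated. No group overlapped another for Nfkbiz, and IL-4 was lowest.

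Promoters from the RefSeq table (GRCm38.p6, up to 250 bases before the annotated start) are shown for a pair of these genes. Matches and their shares were taken from 250 bases before to 50 bases after the start, over every promoter listed for a gene. Sele was chosen because its promoter holds a STAT motif. Cxcl10 was chosen as the first gene of those lower with IL-4 and higher with LPS and IFNg than unstimulated. In Sele, capitals mark the letters TTC and GAA 3 bases apart, the core that STAT dimers bind. In Cxcl10, capitals mark matches to the NF-kappaB motif on either strand, and the second run of capitals holds a pair of matches offset by 1 base. Sele is on the plus strand of chromosome 1 (chr1:164047984-164048233) and Cxcl10 on the minus strand of chromosome 5 (chr5:92348890-92349139).
Sele: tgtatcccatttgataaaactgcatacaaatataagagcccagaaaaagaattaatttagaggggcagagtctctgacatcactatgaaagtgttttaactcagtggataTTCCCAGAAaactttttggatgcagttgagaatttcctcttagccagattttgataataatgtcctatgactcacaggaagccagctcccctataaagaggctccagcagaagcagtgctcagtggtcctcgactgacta
Cxcl10: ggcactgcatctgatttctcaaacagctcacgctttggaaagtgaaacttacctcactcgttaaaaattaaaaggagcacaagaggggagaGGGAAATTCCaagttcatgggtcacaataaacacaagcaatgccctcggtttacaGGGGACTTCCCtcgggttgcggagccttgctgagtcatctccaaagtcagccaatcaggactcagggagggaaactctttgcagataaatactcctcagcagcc
In the whole promoter table the TTC and GAA letters with a spacer of 3 bases occurred in 9.55% of 27025 genes and with a spacer of 4 bases in 8.01%; these motifs read alike on both strands. The NF-kappaB motif occurred in 9.55%. It was also matched in Cxcl1, Cxcl2, Lif, Bcl3 and Ier3, and in Rhov, which LPS with IFNg had lowered. It was not matched in Tnf, Cxcl9, Acod1, Il1a, Il12b, Sele, Mir155hg, Gbp2b, Art3, Dusp5, Gdf15 or Fzd1. Nor was it matched in Socs1, Socs3, Cish, Nfil3, Prdm1, Tarm1, Edn1 or Ch25h, which rose with both stimuli. A match is a description of these letters only.

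Genes of the receptors themselves were also compared. Of 11 receptor and Janus kinase genes tested, 8 were lower and 1 was higher with IL-4 than with LPS and IFNg. Over all genes tested, 15.6% were lower and 14.8% higher, and this list and those below are read against these shares. The median log2 fold change was -0.454 beside -0.00575 over all genes tested. With library-size scaling the counts were 6 lower and 3 higher. Il4ra, the IL-4 receptor alpha chain, had 91.1, 71.8 and 102 CPM with IL-4, 411, 375 and 463 CPM with LPS and IFNg and 104, 89.8 and 103 CPM unstimulated. IL-4 and unstimulated libraries overlapped, and all LPS with IFNg libraries were above them (direct log2 fold change -2.24 ± 0.10, adjusted p = 6.71e-18). The common gamma chain gene Il2rg and Il13ra1, a partner chain for IL-4 and IL-13, were lower with IL-4 by log2 fold changes of -0.90 and -1.19. Jak2 was higher in both stimulated groups, at 54.6, 47.2 and 58.2 CPM with IL-4 and 92.7, 75.2 and 113 CPM with LPS and IFNg against 29, 28 and 27.9 CPM unstimulated. Jak3 and Jak1 differed in log2 fold change by -0.73 and -0.43, the interferon alpha receptor genes Ifnar1 and Ifnar2 by -0.45 and -0.40, and Tyk2 by -0.01, which was not called. Under library-size scaling the calls for Jak1 and Ifnar2 were lost, and Tyk2 and Ifngr1 were called higher.

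The chains of the IFNg receptor went different ways. Ifngr2, its signalling chain, was the member higher with IL-4, at 133, 134 and 141 CPM with IL-4 against 75.1, 69.4 and 79 CPM with LPS and IFNg and 109, 113 and 118 CPM unstimulated (direct log2 fold change 0.87 ± 0.07). Ifngr1, the binding chain, had a direct log2 fold change of -0.04 ± 0.07 and was called higher than unstimulated with each stimulus, by 0.43 with IL-4 and 0.48 with LPS and IFNg.

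Of 14 genes of the LPS receptor and its adaptors, 8 were lower and 1 higher with IL-4, with a median of -0.568, or 7 lower and 4 higher with library-size scaling. Tlr4 itself was that 1 gene, at 156, 137 and 159 CPM with IL-4, 40.5, 46.2 and 37.5 CPM with LPS and IFNg and 83.9, 81.3 and 90.5 CPM unstimulated. Each stimulus moved it away from the unstimulated level in its own direction, and no libraries of different groups overlapped (direct log2 fold change 1.86 ± 0.14, adjusted p = 3.15e-12). Its co-receptor Cd14 went the other way, with 341, 290.0 and 359 CPM with IL-4 against 810.1, 693 and 896 CPM with LPS and IFNg (log2 fold change -1.28 ± 0.09). Myd88, the adaptor of most Toll-like receptors, had 67.8, 64.1 and 70.9 CPM with IL-4 against 256, 228 and 282 CPM with LPS and IFNg (log2 fold change -1.92 ± 0.08). Irak2, a kinase of the same complex, fell with IL-4 and rose with LPS and IFNg relative to unstimulated cells, by log2 fold changes of -0.73 and 0.84.

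Of 6 STAT genes tested, 5 were lower with IL-4 and none higher, with a median log2 fold change of -0.511, and IL-4 called none of them against unstimulated cells. Stat5a had 24.4, 25.8 and 26.5 CPM with IL-4 against 87.7, 80.6 and 98.2 CPM with LPS and IFNg (log2 fold change -1.80 ± 0.10), and Stat3 had 116, 111 and 137 CPM with IL-4 against 340.5, 355 and 401 CPM with LPS and IFNg (-1.59 ± 0.10). The LPS with IFNg libraries lay above all others for both, which overlap each other on opposite strands. Stat6, the mediator of IL-4, was close in all groups, with 226, 249 and 258 CPM with IL-4, 271, 279.9 and 282 CPM with LPS and IFNg and 277, 257 and 273 CPM unstimulated. Its direct difference of -0.19 ± 0.07 (adjusted p = 0.0362) turned to 0.08 and was not called with library-size scaling, under which Stat3, Stat5a and Stat5b were called lower. The call for Stat6 was also lost without any 1 of the IL-4 and LPS with IFNg libraries except IL-4 replicate 3.

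The SOCS genes, feedback inhibitors of these receptors, held members raised by both stimuli and members raised by 1 of them. Of 8 tested, 3 were higher and 4 lower with IL-4, with a median of -0.389. Against unstimulated cells 5 rose with IL-4 and none fell, where 3.22% of all genes rose and 3.27% fell. With LPS and IFNg 5 rose and 1 fell, where 14.7% of all genes went each way. Socs1 (chromosome 16, 10782240 to 10785536) had 165, 153 and 155 CPM with IL-4, 275, 222 and 269 CPM with LPS and IFNg and 4.83, 2.49 and 3.56 CPM unstimulated. Both stimulated groups exceeded unstimulated cells by more than an order of magnitude, and IL-4 was the lower of them (direct log2 fold change -0.70 ± 0.09, adjusted p = 3.01e-07). Cish (chromosome 9, 107296026 to 107302784) had 36.2, 28.9 and 37.9 CPM with IL-4, 167, 157 and 172 CPM with LPS and IFNg and 1.24, 0.293 and 1.87 CPM unstimulated, with a direct log2 fold change of -2.26 ± 0.12. Socs3, an inhibitor of gp130 receptors, had 22.9, 18.4 and 24.2 CPM with IL-4, 2975, 2826 and 3066 CPM with LPS and IFNg and 8.97, 2.35 and 6.75 CPM unstimulated. IL-4 had raised it too (log2 fold change 1.86 ± 0.22, adjusted p = 9.42e-08), while the direct difference was -7.07 ± 0.14. Socs2, described above, rose with IL-4 and was not called with LPS and IFNg (log2 fold change 0.20 ± 0.50, adjusted p = 0.825). Socs5 had 83.4, 72.5 and 77 CPM with IL-4, 47.9, 37.8 and 52.3 CPM with LPS and IFNg and 28.2, 26.6 and 27.6 CPM unstimulated, an order with no overlap in which IL-4 was highest. Socs6 and Socs7 differed in log2 fold change by 0.46 and -0.98, and Socs4 by -0.08, which was not called.

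The promoters of Cish and Socs3, whose transcripts rose with both stimuli, are shown because they carry the STAT letters. Capitals mark TTC and GAA 3 bases apart. Those of Socs1, Nfil3, Ier3, Prdm1, Tarm1 and Ch25h, which also rose with both, held neither spacing. Cish is on the plus strand of chromosome 9 (chr9:107296409-107296683, through base 25 after the start) and Socs3 on the minus strand of chromosome 11 (chr11:117969367-117969616).
Cish: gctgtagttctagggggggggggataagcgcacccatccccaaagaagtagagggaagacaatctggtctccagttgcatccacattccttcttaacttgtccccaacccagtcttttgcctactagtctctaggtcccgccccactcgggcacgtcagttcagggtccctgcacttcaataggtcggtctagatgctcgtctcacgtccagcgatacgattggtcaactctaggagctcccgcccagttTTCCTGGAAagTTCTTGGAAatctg
Socs3: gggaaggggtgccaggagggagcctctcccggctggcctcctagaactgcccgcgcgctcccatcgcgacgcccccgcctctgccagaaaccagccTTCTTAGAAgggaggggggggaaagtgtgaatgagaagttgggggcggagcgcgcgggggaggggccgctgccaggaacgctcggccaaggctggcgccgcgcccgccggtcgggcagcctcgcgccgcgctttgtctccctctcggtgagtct
Tmem26, raised by IL-4 and not by LPS with IFNg, and Edn1, raised by both, are shown for the spacer of 4 bases. Tmem26 is on the plus strand of chromosome 10 (chr10:68723496-68723745) and Edn1 on the plus strand of chromosome 13 (chr13:42301226-42301475).
Tmem26: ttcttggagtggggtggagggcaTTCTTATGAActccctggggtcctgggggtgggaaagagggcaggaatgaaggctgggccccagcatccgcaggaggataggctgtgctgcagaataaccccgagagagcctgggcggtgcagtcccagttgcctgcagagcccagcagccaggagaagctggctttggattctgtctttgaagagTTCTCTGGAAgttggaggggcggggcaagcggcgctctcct
Edn1: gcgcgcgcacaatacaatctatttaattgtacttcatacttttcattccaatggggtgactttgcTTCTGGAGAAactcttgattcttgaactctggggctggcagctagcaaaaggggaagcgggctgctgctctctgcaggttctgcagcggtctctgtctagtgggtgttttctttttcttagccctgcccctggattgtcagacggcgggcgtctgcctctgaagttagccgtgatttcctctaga
Of 68 genes looked up in the table, 46 had a promoter there, and the 5 shown for STAT letters were those that held either spacing, against 16.6% of all genes in the table.

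Interferon regulatory factors were mostly lower with IL-4, 6 of 8 tested and none higher, with a median of -0.603; library-size scaling gave 5 lower and 1 higher. Irf1, a first-wave interferon target, had 47.8, 43.6 and 53.2 CPM with IL-4, 2998, 2823 and 3085 CPM with LPS and IFNg and 42.8, 39.2 and 41.4 CPM unstimulated (direct log2 fold change -5.94 ± 0.08, adjusted p = 3.56e-29). Irf8, a factor of the monocyte lineage, had 77.9, 72.7 and 81.8 CPM with IL-4 and 1319, 1247 and 1403 CPM with LPS and IFNg against 107, 104 and 115 CPM unstimulated, and the IL-4 libraries were the lowest. Irf4, known as a mediator of the IL-4 program, had 49.3, 45.5 and 62 CPM with IL-4, 95.2, 92.7 and 87.6 CPM with LPS and IFNg and 10.5, 7.34 and 11.6 CPM unstimulated. At 1 h it was thus raised by both and lower with IL-4 than with LPS and IFNg (log2 fold change -0.82 ± 0.12, adjusted p = 3.23e-06). Irf5 was the member that IL-4 had lowered while LPS with IFNg had not moved it past the threshold, with 291, 254 and 287 CPM with IL-4 against 405, 383 and 416 CPM with LPS and IFNg and 415, 373 and 432 CPM unstimulated. Irf7 had a direct log2 fold change of -0.52 ± 0.17 (adjusted p = 0.0219), a call lost without IL-4 replicate 2 or LPS with IFNg replicate 2 or 3, with library-size scaling and with DESeq2. Irf9 differed in log2 fold change by -0.67, and Irf2 and Irf3 were not called, with 0.13 and -0.17, although Irf2 was called higher than unstimulated with each stimulus.

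Of 28 tested genes known as IL-4 effectors or markers, 12 were higher and 5 lower with IL-4 than with LPS and IFNg, with a median log2 fold change of 0.258, or 16 higher and 5 lower with library-size scaling. With TMM, the share lower lies near the 15.6% of all genes, and 14.8% of all genes were higher. Against unstimulated cells 18 had risen with IL-4 and none had fallen, and 9 had risen and 2 fallen with LPS and IFNg. Over all genes, 3.22% had risen and 3.27% fallen with IL-4, and 14.7% each way with LPS and IFNg. Beside Arg1, Cdh1 and Tmem26, the lectin gene Mgl2 had 8.75, 8.95 and 7.62 CPM with IL-4 against 0.555, 0.398 and 1.08 CPM with LPS and IFNg and 1.1, 1.17 and 0.562 CPM unstimulated (direct log2 fold change 3.58 ± 0.49). Pdcd1lg2, the gene of the inhibitory ligand PD-L2, had 2.09, 2.24 and 3.15 CPM with IL-4 and 1 count over the LPS with IFNg group, a ratio of 39.3 with an exact 95% interval of 6.73 to 1584. Slc7a2, an arginine transporter, had 83.3, 53.4 and 68.6 CPM with IL-4, 31.4, 27.3 and 29.2 CPM with LPS and IFNg and 10.6, 8.8 and 7.5 CPM unstimulated, so both raised it and IL-4 more so (direct log2 fold change 1.23 ± 0.16). Bcar3, Flt1, Clec10a, Ptgs1 and Matk were higher with IL-4, with log2 fold changes of 1.28, 1.34, 0.81, 0.74 and 0.32. The call for Ptgs1 was lost without IL-4 replicate 3 or LPS with IFNg replicate 2, and that for Matk without IL-4 replicate 3 or LPS with IFNg replicate 1 or 2. Ccl24, an eosinophil attractant, was higher too, but with 2 counts over the LPS with IFNg group its ratio of 9.23 had an exact 95% interval of 2.28 to 80.7.

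A group of genes on the same list was lower with IL-4 at this time. Tfec, a factor of the MiT family, had 44.4, 42.4 and 43.2 CPM with IL-4, 231, 192 and 233 CPM with LPS and IFNg and 13.5, 10.6 and 9.75 CPM unstimulated. Both stimuli had raised it and LPS with IFNg more (direct log2 fold change -2.33 ± 0.10, adjusted p = 1.8e-18). Ccl22, a chemokine for regulatory T cells, had 2.96, 2.24 and 1.33 CPM with IL-4 and 24.8, 18.9 and 29 CPM with LPS and IFNg against 3.73, 3.23 and 3.37 CPM unstimulated; only the LPS with IFNg libraries differed past the threshold from unstimulated cells. Il1rn, the IL-1 receptor antagonist, had 81.2, 81.1 and 102 CPM with IL-4 against 1642, 1504 and 1750.5 CPM with LPS and IFNg (log2 fold change -4.22 ± 0.10). Plk2 and Tgm2 were lower, with log2 fold changes of -1.10 and -0.96. Egr2, a zinc finger factor of the immediate early class that IL-4 also induces, is not on this list. It had 255, 264 and 315 CPM with IL-4, 553, 589 and 589.6 CPM with LPS and IFNg and 56.6, 51.9 and 60.7 CPM unstimulated. This was the same order as for Irf4 and Tfec, with no overlap of groups.

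Several genes often used for IL-4 macrophages were not called in the direct comparison with TMM. Mrc1, the mannose receptor, had 577, 521 and 684 CPM with IL-4, 461, 550.4 and 593 CPM with LPS and IFNg and 423, 424 and 411 CPM unstimulated, and the stimulated groups overlapped (log2 fold change 0.15 ± 0.16, adjusted p = 0.526). Chil3, a chitinase-like protein, had 43.7, 48.6 and 45.6 CPM with IL-4 and 45.7, 38.4 and 40.9 CPM with LPS and IFNg (log2 fold change 0.14 ± 0.14, adjusted p = 0.509). Pparg, a lipid-sensing nuclear receptor, had 81.7, 73.4 and 92.3 CPM with IL-4 and 83.2, 76.4 and 82.1 CPM with LPS and IFNg against 54.9, 56.5 and 57.2 CPM unstimulated; both stimuli were called higher than unstimulated, and the direct difference was 0.03 ± 0.08. With library-size scaling all 3 were called higher with IL-4. Il4i1, an amino acid oxidase, and the factor gene Batf3 were called higher than unstimulated with each stimulus and differed directly in log2 fold change by -0.22 and 0.19, not called. Retnla, a resistin-like gene, had 0.123, 0.517 and 0.331 CPM with IL-4 and no count in the other groups. All its IL-4 libraries thus lay above the rest, but with so few counts it was not called.

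**Figure D3:**
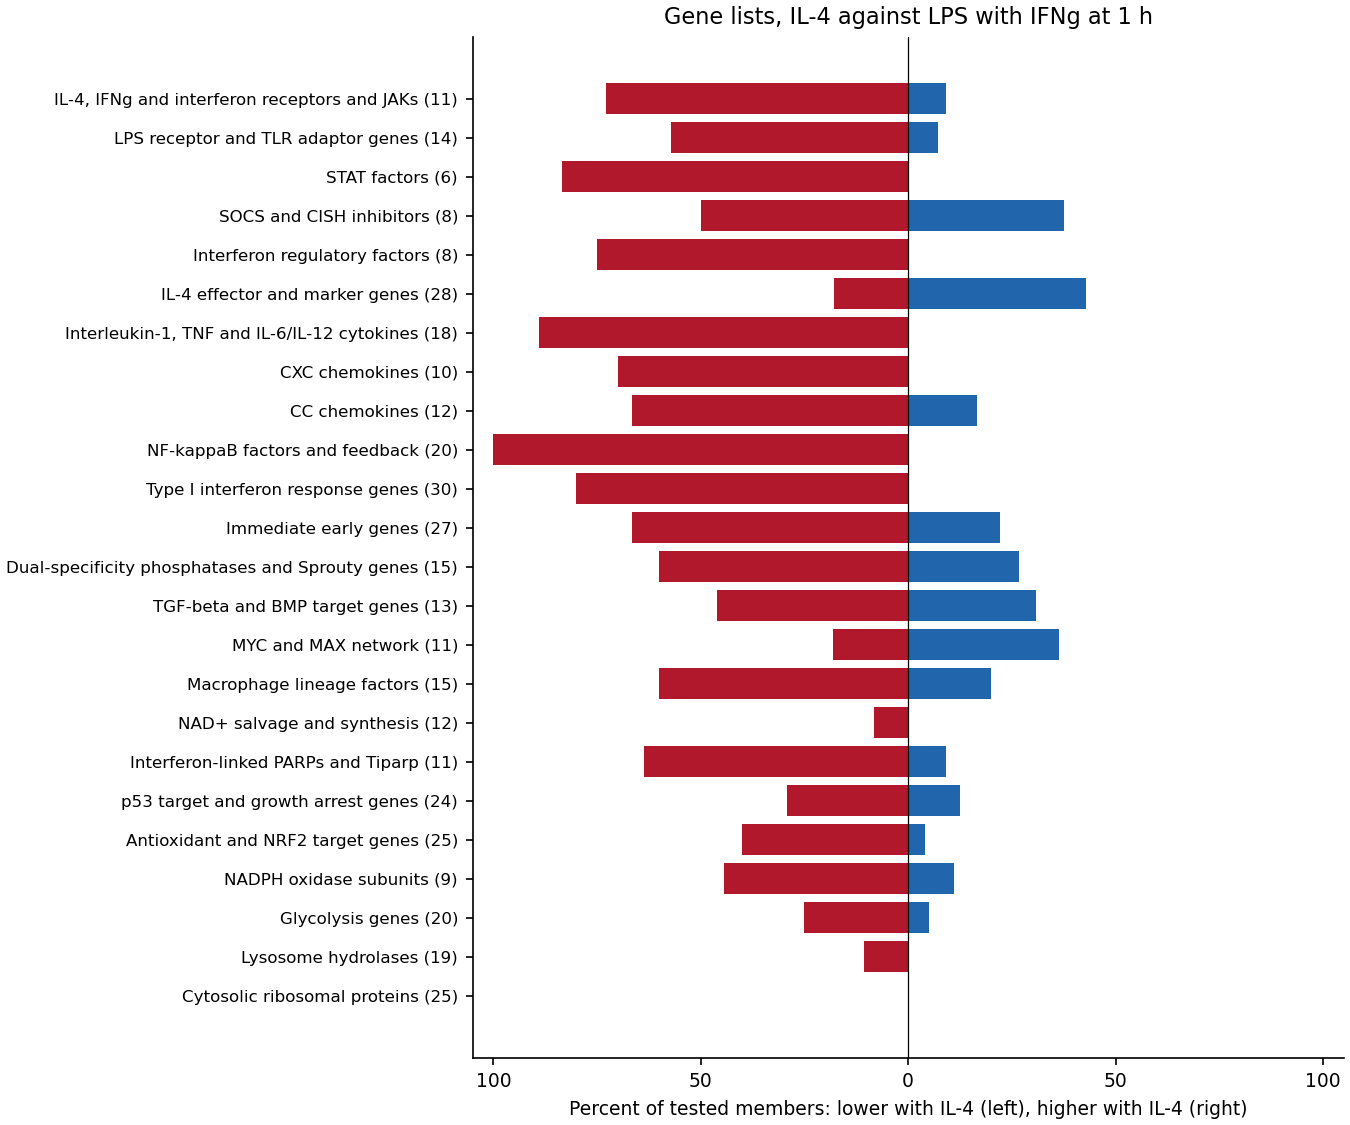
Percent of the tested members of each gene list (number in brackets) that were lower (red, to the left) or higher (blue, to the right) with IL-4 than with LPS and IFNg at 1 h. All 20 NF-kappaB genes were lower, 12 of 28 IL-4 effectors were higher, and none of 25 ribosomal protein genes was called. Over all genes, 15.6% were lower and 14.8% higher.

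Inflammatory lists moved in 1 direction. Of 18 cytokine genes tested, 16 were lower with IL-4 and none higher, with a median log2 fold change of -5.96, or -4.17 with genes of no count set at their bound. Of 10 CXC chemokines 7 were lower, with a median of -8.5, or -7.08 with bounds. All 20 genes of NF-kappaB factors and their feedback were lower with IL-4, against 15.6% of all genes, with a median of -3.02. Of 30 type I interferon response genes 24 were lower (median -1.17), or 17 lower and 1 higher with library-size scaling. LPS with IFNg had raised 16, 7, 20 and 26 genes of these lists over unstimulated cells and lowered 0, 1, 0 and 0. Over all genes it had raised 14.7% and lowered 14.7%.

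Within the NF-kappaB list, IL-4 had raised 5 genes and lowered 5 relative to unstimulated cells, against 3.22% and 3.27% of all genes. Among the raised ones was Cd40, a co-stimulatory receptor, with 14.3, 13.1 and 13.4 CPM with IL-4 and 797, 694 and 853 CPM with LPS and IFNg against 6.63, 6.16 and 6.94 CPM unstimulated. Among the lowered ones were Nfkbiz, Bcl3 and Icam1, and Icam1, an adhesion molecule, had 38.4, 34.1 and 39.8 CPM with IL-4 and 2318, 2097 and 2423 CPM with LPS and IFNg against 49.1, 45.6 and 51.6 CPM unstimulated. Tnfaip3, a deubiquitinase that limits NF-kappaB, had 52.4, 51.1 and 63 CPM with IL-4 and 2390.4, 2362 and 2481 CPM with LPS and IFNg; its IL-4 level missed the threshold against unstimulated cells (log2 fold change 0.32 ± 0.10, adjusted p = 0.053) and passed it with the replicate block (adjusted p = 0.00965). In the type I interferon list, Ifit1, Oasl1, Ifi203 and Ifi205 were lower with IL-4, with log2 fold changes of -4.53, -4.42, -4.81 and -5.17. Against unstimulated cells IL-4 had moved 1 of the 30 past the threshold, where it had moved 6.49% of all genes. The gene was Irf7, a call lost without IL-4 replicate 1 or unstimulated replicate 1 or 2.

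CC chemokines were mixed. Of 12 tested, 8 were lower and 2 higher with IL-4, with a median of -2.26. The share higher lies near the 14.8% of all genes, of which 15.6% were lower. IL-4 had raised 5 over unstimulated cells, against 3.22% of all genes. Ccl7, an attractant of monocytes, had 358, 373 and 401 CPM with IL-4, 189, 175 and 222 CPM with LPS and IFNg and 16.2, 21.9 and 19.9 CPM unstimulated, so that IL-4 was the higher of the stimulated groups (direct log2 fold change 0.95 ± 0.11, adjusted p = 2.98e-08). Ccl3 and Ccl4, macrophage inflammatory proteins, were raised by both. Ccl3 had 46.6, 53.7 and 63.3 CPM with IL-4, 1099, 1055 and 1139 CPM with LPS and IFNg and 21.4, 18.9 and 22.9 CPM unstimulated. Ccl4 had 66.3, 77.3 and 63.8 CPM with IL-4, 1392, 1273 and 1325 CPM with LPS and IFNg and 18.5, 14.2 and 14.2 CPM unstimulated. For both genes IL-4 lay between the other groups without overlap. Ccl5 and Ccl12 were lower with IL-4, with log2 fold changes of -4.91 and -4.50. Against unstimulated cells, IL-4 had not moved Ccl5 past the threshold (log2 fold change -0.25 ± 0.38), and the value of 1.26 ± 0.43 for Ccl12 (adjusted p = 0.0612) passed it with the replicate block (adjusted p = 0.048).

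Of 27 immediate early genes, 18 were lower and 6 higher with IL-4 (median -1.48), against 15.6% and 14.8% of all genes. IL-4 had moved 19 of them against unstimulated cells, 8 up and 11 down, where it had moved 6.49% of all genes. Btg2, an antiproliferative gene, had 9.36, 9.81 and 11.4 CPM with IL-4 and 149, 147 and 152 CPM with LPS and IFNg against 19.3, 17.6 and 21.7 CPM unstimulated, lowest with IL-4 and with no overlap. Zfp36, whose protein destabilizes cytokine mRNAs, had 178, 163 and 221 CPM with IL-4 against 3608, 3489 and 3693 CPM with LPS and IFNg. Maff and Nr4a3 were lower, with log2 fold changes of -4.08 and -4.55. Among 15 dual-specificity phosphatase and Sprouty genes, 9 were lower and 4 higher, and Dusp5, which inactivates ERK, had 12.7, 9.81 and 15.9 CPM with IL-4, 225, 207 and 253 CPM with LPS and IFNg and 66.4, 56.1 and 82.7 CPM unstimulated. IL-4 had thus lowered Dusp5 by 2.40 on the log2 scale where LPS with IFNg had raised it by 1.75. Dusp2 differed directly in log2 fold change by -3.97.

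Of 13 TGF-beta and BMP target genes 4 were higher and 6 lower with IL-4, against 14.8% and 15.6% of all genes. Smad6, another inhibitor of SMAD signalling, had 2.22, 1.38 and 1.99 CPM with IL-4, 5.55, 4.38 and 6.81 CPM with LPS and IFNg and 7.45, 10.1 and 8.06 CPM unstimulated. The IL-4 mean was the lowest of the 3. Of 11 genes of the MYC network 4 were higher and 2 lower, or 7 and 2 with library-size scaling. With TMM, the share lower lies near the 15.6% of all genes. Myc had 172, 160.1 and 194 CPM with IL-4, 105, 108 and 107 CPM with LPS and IFNg and 79.8, 72.2 and 80.2 CPM unstimulated, and its direct log2 fold change was 0.72 ± 0.09 (adjusted p = 1.18e-07). Mxd1, an antagonist of MYC, had 5.54, 6.37 and 6.79 CPM with IL-4 against 69.7, 61.7 and 60.0 CPM with LPS and IFNg.

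Of 15 lineage factors, 3 were higher and 9 lower with IL-4, or 4 and 7 with library-size scaling. Over all genes, 14.8% were higher and 15.6% lower with TMM. Cebpd had 8.63, 9.64 and 12.1 CPM with IL-4 against 24.6, 25.5 and 24.9 CPM with LPS and IFNg, and Batf had 2.46, 2.41 and 1.82 CPM with IL-4 against 5.92, 3.38 and 8.42 CPM with LPS and IFNg.

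The title of the series names NAD+ and oxidant metabolism, and the lists tied to them are read against the 15.6% of all genes that were lower and the 14.8% that were higher with IL-4. Of 12 NAD+ genes tested 1 was lower with IL-4 and none higher, or 1 lower and 5 higher with library-size scaling. The lower gene was Nampt, whose enzyme limits the rate of NAD+ salvage, with 119, 113 and 122 CPM with IL-4, 637, 593 and 674 CPM with LPS and IFNg and 96.1, 90.4 and 111 CPM unstimulated (direct log2 fold change -2.43 ± 0.07, adjusted p = 2.8e-22). A list of interferon-linked PARP genes, whose family uses NAD+, also held Tiparp and the PARP9 partner gene Dtx3l. Of its 11 genes tested, 7 were lower and 1 higher, or 5 and 1 with library-size scaling. Parp14 had 147, 121 and 147 CPM with IL-4 against 668, 651 and 725 CPM with LPS and IFNg, and Parp9 and Dtx3l, partners that overlap on opposite strands, were lower, with log2 fold changes of -1.87 and -2.05. Tiparp was lower, with a log2 fold change of -1.89.

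Of 25 antioxidant genes 10 were lower and 1 higher, of 9 NADPH oxidase subunits 4 and 1, of 20 glycolysis genes 5 and 1, of 24 p53 targets 7 and 3, of 19 lysosomal genes 2 and 0, and of 25 ribosomal protein genes 0 and 0. Against the 30.4% of all genes called in either direction, the antioxidant, oxidase and p53 lists had larger shares, the glycolysis list a share near it and the lysosomal and ribosomal lists smaller ones. With library-size scaling, the counts lower and higher became 7 and 10, 3 and 5, 4 and 12, 7 and 13, 0 and 12, and 0 and 19, so the directions of these lists depend on the scaling. Of the genes named from these lists, only Gla and Lamp2 of the lysosomal list turned. Sod2, mitochondrial superoxide dismutase, had 39.3, 44.6 and 44.1 CPM with IL-4 against 592, 543 and 628 CPM with LPS and IFNg, and the metallothionein genes Mt2 and Mt1 were lower, with log2 fold changes of -5.47 and -2.39. Hk2, a hexokinase, had 26.2, 30.0 and 33.6 CPM with IL-4 against 225, 223 and 222 CPM with LPS and IFNg. Pfkfb3, which makes an activator of glycolysis, was lowered by IL-4, with 27.5, 25.1 and 29.8 CPM with IL-4, 58.8, 46.2 and 60.8 CPM with LPS and IFNg and 61.4, 54.1 and 65.6 CPM unstimulated. Cdkn1a, the cell cycle inhibitor p21, had 369, 349 and 356 CPM with IL-4 and 1448, 1274 and 1489 CPM with LPS and IFNg against 259, 249 and 275 CPM unstimulated. Gadd45b and Fas were lower, with log2 fold changes of -4.23 and -3.62. Plk3, a stress kinase, was higher, at 55.8, 49.1 and 56.8 CPM with IL-4 against 5.73, 5.17 and 6.27 CPM with LPS and IFNg. Cybb, which encodes the catalytic oxidase subunit of phagocytes, was lower, with a log2 fold change of -0.83, and Nox1 with one of -1.99.

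Relative to unstimulated cells, both stimuli moved 576 genes (4.51%) past the threshold; the 2 comparisons share the same 3 unstimulated libraries. Of these, 197 genes (1.54%) were higher with both, 227 (1.78%) lower with both, 49 (0.384%) higher with IL-4 and lower with LPS and IFNg, and 103 (0.807%) lower with IL-4 and higher with LPS and IFNg. Library-size scaling gave 172, 276, 119 and 88 genes. Without unstimulated replicate 2 the genes higher with IL-4 and lower with LPS and IFNg numbered 32.

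**Figure D4:**
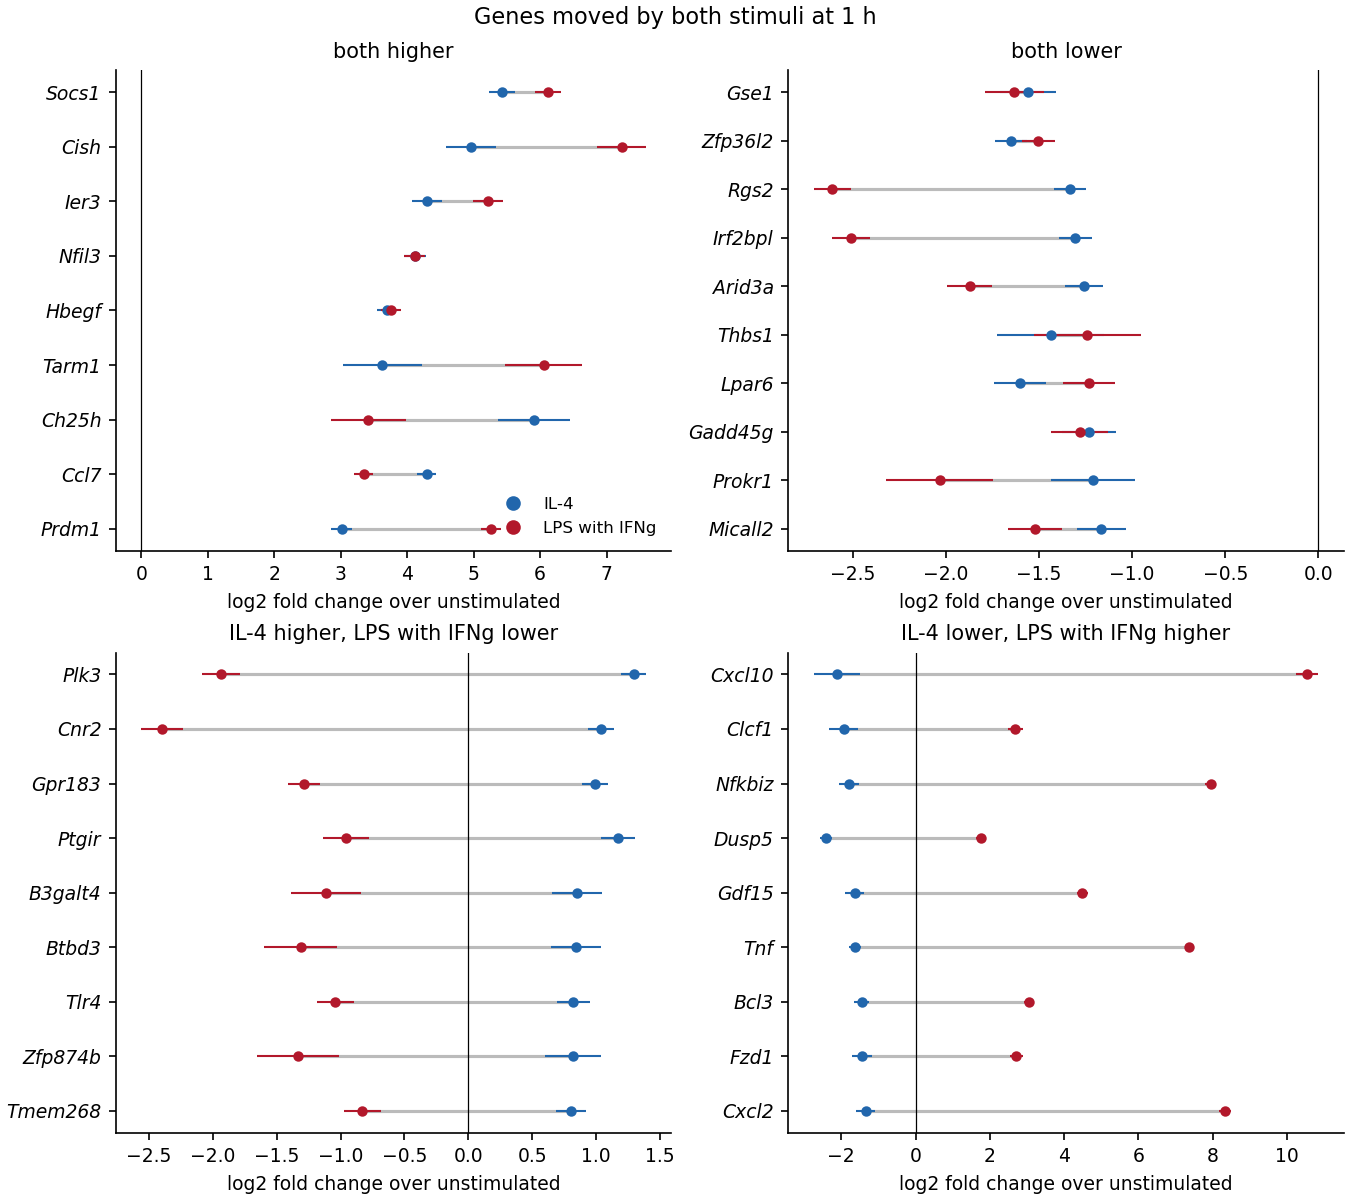
Log2 fold change over unstimulated cells at 1 h with IL-4 (blue) and with LPS and IFNg (red) for named genes of the 4 classes, with standard errors; both use the same 3 unstimulated libraries. Nfil3, Hbegf and Gse1 have almost the same value with either stimulus, while Tnf and Nfkbiz lie on opposite sides of 0; Edn1, with no count in unstimulated cells, is not drawn.

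Among genes higher with both, a few reached nearly the same level. Nfil3, a basic leucine zipper repressor, had 127, 124 and 144 CPM with IL-4 and 139, 127 and 127 CPM with LPS and IFNg against 6.63, 6.02 and 10.7 CPM unstimulated. The stimulated groups overlapped, with a direct log2 fold change of 0.01 ± 0.10 (adjusted p = 0.978). Hbegf, an EGF receptor ligand, had 96.8, 96.8 and 109.5 CPM with IL-4 and 95.8, 103 and 117 CPM with LPS and IFNg against 6.35, 7.48 and 9.94 CPM unstimulated, a direct log2 fold change of -0.06 ± 0.10 (adjusted p = 0.693). Edn1, the gene of the vasoconstrictor endothelin 1, had 1.48, 1.72 and 1.82 CPM with IL-4 and 15.5, 19.1 and 16.3 CPM with LPS and IFNg and no count unstimulated. It was at least 10.7-fold higher with IL-4 and at least 109-fold higher with LPS and IFNg than in unstimulated cells, again with 3 counts set for the group without any.

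Others rose with both but to different levels. Ch25h, whose enzyme makes 25-hydroxycholesterol, had 35.6, 35.8 and 34.3 CPM with IL-4 and 7.21, 6.96 and 4.66 CPM with LPS and IFNg against 0.966, 0.587 and 0 CPM unstimulated, and was the gene of the 10 named in this class with the highest value for IL-4 over LPS with IFNg (direct log2 fold change 2.49 ± 0.22, adjusted p = 8.91e-12). Prdm1, the repressor BLIMP-1, had 54.5, 54.2 and 67.3 CPM with IL-4 and 257, 288 and 286 CPM with LPS and IFNg against 7.73, 7.34 and 6.37 CPM unstimulated. Ier3, an immediate early gene, had 79.2, 82.8 and 77.9 CPM with IL-4 and 158, 120.2 and 173 CPM with LPS and IFNg against 4.00, 3.23 and 5.06 CPM unstimulated. Tarm1, a receptor of myeloid cells, differed directly by -2.43 ± 0.19.

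Genes lower with both held several regulators. Zfp36l2, an RNA-binding protein that promotes mRNA decay, had 101, 99 and 112 CPM with IL-4 and 122, 105 and 118 CPM with LPS and IFNg against 329.9, 317 and 332 CPM unstimulated. Gse1 had 16.8, 21.2 and 21.2 CPM with IL-4 and 19, 19.5 and 17.2 CPM with LPS and IFNg against 64.9, 54.9 and 52.5 CPM unstimulated. For both genes the stimulated groups overlapped and lay under all unstimulated libraries, and the direct differences were -0.15 ± 0.09 and 0.07 ± 0.17. Rgs2, which shortens G protein signals, fell further with LPS and IFNg, with 66.4, 68.9 and 65.6 CPM with IL-4 and 28.7, 27.3 and 27.1 CPM with LPS and IFNg against 157, 168 and 182 CPM unstimulated (direct log2 fold change 1.27 ± 0.10). Irf2bpl and Arid3a were also lower with LPS and IFNg than with IL-4, by direct log2 fold changes of 1.20 and 0.62. Gadd45g, Lpar6, Micall2 and Thbs1 differed directly in log2 fold change by 0.05, -0.37, 0.36 and -0.20, none called, and Prokr1 by 0.82 (adjusted p = 0.0375), a call lost without IL-4 replicate 3 or any LPS with IFNg library. Thbs1 varied widely within groups, from 24.8 to 64.1 CPM with IL-4.

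Of the genes that rose with IL-4 and fell with LPS and IFNg, Plk3 and Tlr4 are described above. Cnr2, the cannabinoid receptor of immune cells, had 72.7, 74 and 79.4 CPM with IL-4 and 9.25, 5.17 and 6.27 CPM with LPS and IFNg against 39.3, 34 and 36.4 CPM unstimulated. Gpr183, a receptor for oxysterols made from the product of CH25H, had 111, 99.9 and 99.6 CPM with IL-4 and 22.2, 20.9 and 21 CPM with LPS and IFNg against 50.7, 50.2 and 56.1 CPM unstimulated. Ptgir, the prostacyclin receptor, had 23, 21.9 and 26.3 CPM with IL-4 and 4.81, 4.97 and 6.45 CPM with LPS and IFNg against 11.7, 9.83 and 9.94 CPM unstimulated. In all 3 receptors the groups did not overlap and the unstimulated libraries lay between the others. B3galt4, Btbd3, Zfp874b and Tmem268 had the same order with direct log2 fold changes of 1.96, 2.16, 2.15 and 1.63. The IL-4 call of Btbd3 was lost without unstimulated replicate 2, and that of Zfp874b without IL-4 replicate 3 or unstimulated replicate 1 or 2.

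Genes that IL-4 lowered and LPS with IFNg raised included several named above. Beside Tnf, Nfkbiz, Cxcl2 and Dusp5, Bcl3, an NF-kappaB cofactor, had 5.91, 4.3 and 6.46 CPM with IL-4 and 131, 112 and 139 CPM with LPS and IFNg against 17.7, 13.5 and 14.8 CPM unstimulated. Gdf15, a stress-induced cytokine, had 2.71, 2.24 and 3.81 CPM with IL-4 and 189, 192 and 234 CPM with LPS and IFNg against 8.28, 9.54 and 9.56 CPM unstimulated. Fzd1, a WNT receptor, and Clcf1, an IL-6 family cytokine, fell with IL-4, with log2 fold changes of -1.43 and -1.93 over unstimulated cells. No IL-4 library reached an unstimulated library for any of these 8 genes. For Cxcl10, the fall with IL-4 (log2 fold change -2.12 ± 0.62, adjusted p = 0.012) rested on unstimulated replicate 1; without it the log2 fold change was -0.43 (adjusted p = 0.918), and the call was also lost without IL-4 replicate 1.

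After 18 h the groups differed in 9436 genes (73.9%), 4754 (37.2%) higher and 4682 (36.7%) lower with IL-4, or 7253 and 2776 with library-size scaling. Those libraries share none with the comparison at 1 h. Of the 557 genes at least 2-fold higher with IL-4 at 1 h, 201 (36.1%) were also called higher at 18 h, 142 (25.5%) were called lower and 214 were not called. The share called higher lies near the 37.2% of all genes, and their median log2 fold change was 0.111 at 18 h against 1.47 at 1 h. Of the 728 genes at least 2-fold lower at 1 h, 562 (77.2%) were lower at 18 h, against 36.7% of all genes, and 65 (8.93%) were higher. Their median was -2.04 at 18 h and -2.07 at 1 h.

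The change between times was tested as an interaction and called for 8297 genes (65%), 4207 (33%) with a larger and 4090 (32%) with a smaller value at 18 h; library-size scaling gave 5072 and 3245. Genes not called in the direct comparison at 1 h differed widely at 18 h. Mrc1 averaged 988 ± 166 CPM with IL-4 and 18.6 ± 1.01 CPM with LPS and IFNg at 18 h (SD, n = 3 each), a log2 fold change of 5.73 ± 0.21 against 0.15 at 1 h. Chil3 averaged 589 ± 131 CPM with IL-4 and 6.38 ± 1.9 CPM with LPS and IFNg, and Retnla averaged 204 ± 60.6 CPM with IL-4 and 0.0631 ± 0.109 CPM with LPS and IFNg.

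Some genes raised by both at 1 h were higher with IL-4 at 18 h. Irf4 averaged 71.8 ± 8.89 CPM with IL-4 and 0.66 ± 0.169 CPM with LPS and IFNg at 18 h, and its log2 fold change was 6.75 ± 0.52 at 18 h against -0.82 at 1 h. Egr2 averaged 229.6 ± 14.3 CPM with IL-4 and 2.1 ± 0.875 CPM with LPS and IFNg at 18 h, with 6.75 ± 0.27 against -1.05 at 1 h. Tfec and Edn1 turned in the same way, with 2.09 and 3.42 at 18 h against -2.33 and -3.34 at 1 h. Myc, higher with IL-4 at 1 h by 0.72, differed by 7.22 at 18 h. The opposite turn was seen for Ch25h, which averaged 4.39 ± 0.939 CPM with IL-4 and 58.8 ± 10.1 CPM with LPS and IFNg at 18 h (-3.73 ± 0.21), for Slc7a2 (-1.73) and for Rhov (-1.87).

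Arg1 was again higher, with 618 ± 29.3 CPM with IL-4 and 19.3 ± 3.47 CPM with LPS and IFNg at 18 h, a log2 fold change of 5.01 ± 0.13; its change between times of -1.20 ± 0.85 was not called. Cxcl10 likewise differed by -12.66 at 18 h and -12.67 at 1 h. Calls of single genes at 18 h were not tried under library-size scaling, which moved the median at 18 h up by 0.47. Gdf15 and Dusp5 were not called at 18 h, with 0.01 ± 0.19 and -0.34 ± 0.17 against -6.13 and -4.15 at 1 h. Tlr4 differed by -0.06 at 18 h (adjusted p = 0.695) and 1.86 at 1 h.

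**Figure D5:**
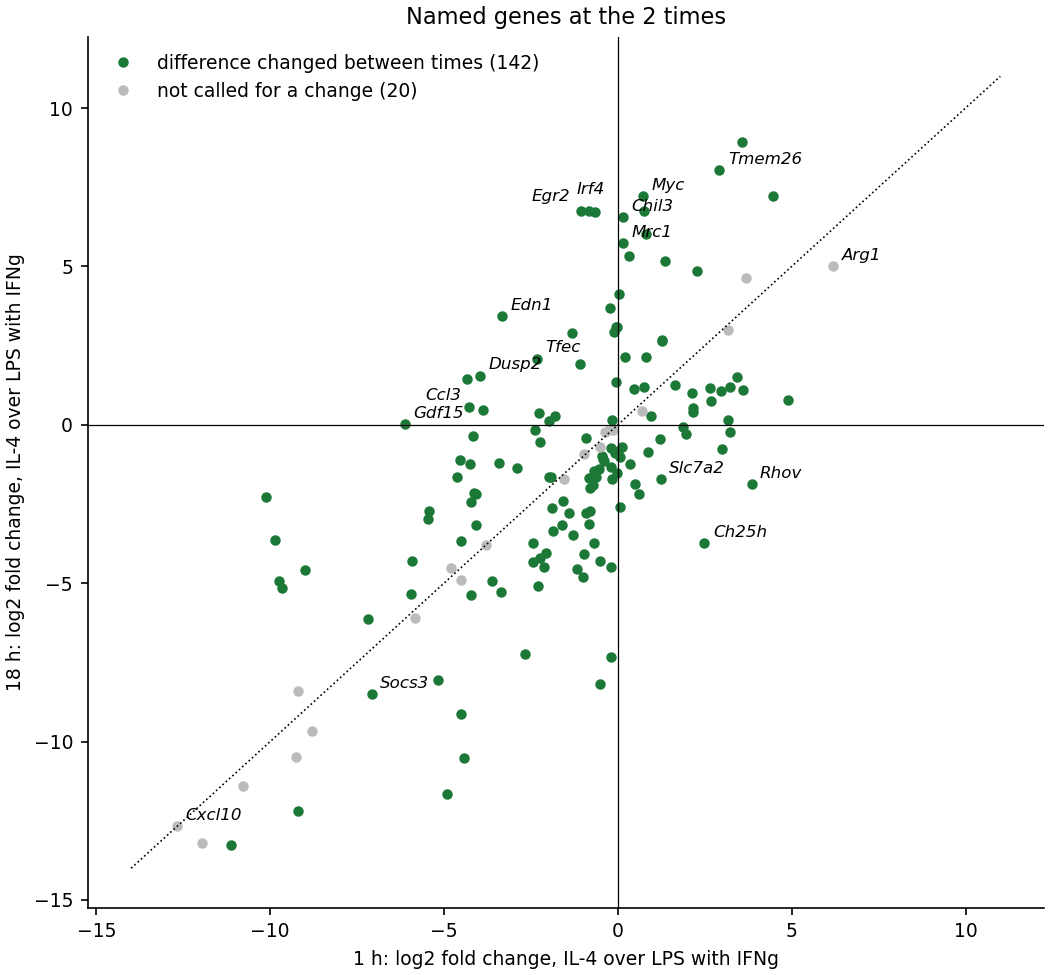
Log2 fold change of IL-4 over LPS with IFNg at 18 h (y axis) against that at 1 h (x axis) for the 162 named genes with counts in all 4 groups; green genes (142) were called for a change between times, grey ones (20) were not, and the dotted line marks equal values. Irf4, Egr2 and Edn1 lie left of 0 at 1 h and above 0 at 18 h, and Ch25h, Rhov and Slc7a2 lie in the opposite corner.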

How the data were processed

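RNA was measured by sequencing of poly(A) libraries from a strand-keeping kit. The submitters' processing notes name STAR, featureCounts, DESeq2, deepTools and the GRCm38 build, without versions or roles. The deposited files hold raw counts per gene, whole numbers that were not normalized, for 43629 identifiers in each library. Gene names and positions came from the annotation of the same build. Whether strand was used in counting is not given in the sources used here.

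Counts of all 24 libraries in 8 groups were fitted with edgeR 4.0.16 (R 4.3.3), TMM scaling and the quasi-likelihood test, after filterByExpr with a minimum count of 10 left 12765 genes. The common biological coefficient of variation was 0.0736. P-values were adjusted by Benjamini-Hochberg over all tested genes, and 0.05 was the threshold. Genes with no count in a group are given as bounds against 3 counts over the group, and those with 1 to 3 counts as a ratio with an exact 95% interval. Groups came from the labels. The scripts were tested on simulated data. DESeq2 1.42.0, limma-voom (limma 3.58.1), other scalings, no filter, a stricter threshold, the compared groups alone, leaving out each library and the replicate number as a block were tried as alternatives. Figures were drawn with matplotlib 3.10.9.

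Deviations of same-numbered IL-4 and unstimulated libraries at 1 h correlated at 0.133 to 0.231, so these numbers met the criterion for pairs (every correlation over 0.1). All reported calls and counts still come from the fit without a block, and the block was an alternative. For IL-4 with LPS and IFNg the correlations were 0.0846 to 0.167, and these did not meet it. Nor did LPS and IFNg with unstimulated libraries, at 0.0188 to 0.137. Libraries of different numbers correlated at -0.121 to 0.0095 for IL-4 with LPS and IFNg, below every same-numbered value. For LPS and IFNg with unstimulated libraries they correlated at -0.14 to 0.0239. Missing the criterion thus does not show that the libraries of the direct comparison were unpaired. With the block that comparison called 4294 genes in place of 3879.

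Named genes were the 15 largest called differences in each direction (mean of at least 5 CPM, groups not overlapping, no predicted genes), the 10 largest of each class moved by both stimuli, up to 4 of each list, whole lists of receptors, STAT, SOCS, IRF and IL-4 effector genes, and a fixed set; a few of these genes and 1 list are not reported here. The comparison, members and lists were chosen with earlier results of these data known. Promoters are from RefSeq, GRCm38.p6.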

Additional observations from a re-analysis of the deposited data

Results flagged for a closer look

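The difference of IL-4 minus LPS with IFNg changed between times in 8297 genes by the interaction test of edgeR. In 20 of the 146 named genes called at 1 h, the change was called and the difference was called in opposite directions at the 2 times. Over all genes, 596 of the 1893 higher with IL-4 at 1 h (31.5%) were called lower at 18 h. Of the 1986 lower at 1 h, 371 (18.7%) were called higher, so such turns were not particular to the named genes. The changes are given as the log2 difference at 18 h minus that at 1 h.

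Genes that were lower with IL-4 at 1 h and higher at 18 h included the transcription factor genes Egr2 (7.80), Irf4 (7.56), Tfec (4.42), Cebpd (4.22) and Stat5a (2.06). The ligand genes Edn1 (6.76), Ccl3 (5.79) and Ccl4 (4.82) turned in the same direction. So did the regulators Dusp2 (5.52), Btg2 (4.33), Plk2 (3.0) and Cish (2.65). For Ccl3 the log2 differences were 1.45 at 18 h and -4.34 at 1 h, and for Dusp2 they were 1.55 and -3.97.

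Genes that were higher with IL-4 at 1 h and lower at 18 h included Ch25h (-6.22), Rhov (-5.72), Ccl24 (-3.77), Slc7a2 (-2.96), Arid3a (-2.82), Cybc1 (-2.37), Ifngr2 (-1.71) and Irf2bpl (-1.65). Ccl24 had 2 counts over the LPS with IFNg group at 1 h. Irf2bpl differed by -0.443 at 18 h, where library-size scaling moved the median of all genes up by 0.47. Calls of single genes at 18 h were not tried under the alternatives. Ifngr2, the signalling chain of the IFNg receptor, had log2 differences of -0.84 at 18 h and 0.87 at 1 h.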

How the results depend on the processing

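Scaling by library totals moved the direct comparison to 6592 called genes and LPS with IFNg against unstimulated cells to 6337; every other alternative gave counts within 1.5 times those reported for all 6 counts. Within the genes moved by both, a threshold of 0.01 left 146 lower with both and 31 higher with IL-4 and lower with LPS and IFNg. Under that scaling the direct difference turned to 0.0903 for Gla, 0.23 for Ifngr1, 0.24 for Itgax, 0.0807 for Lamp2, 0.0847 for Stat6 and 0.26 for Tyk2, and that of LPS with IFNg over unstimulated cells to -0.0284 for Gla, -0.11 for Lamp2, -0.22 for Stat6 and -0.20 for Tyk2. Leaving out 1 library at a time gave 3298 to 3526 genes in the direct comparison, 648 to 735 for IL-4 and 3206 to 3467 for LPS with IFNg against unstimulated cells, 447 to 552 moved by both, 8989 to 9288 at 18 h and 8005 to 8268 for the change between times. With the replicate number as a block the same 6 counts were 4294, 986, 4188, 703, 9618 and 8540; the numbers met the criterion for pairs for IL-4 with unstimulated cells alone, and the counts reported are those without the block. Of 171 named genes, the direct call was made for 146, and 135 kept direction and call in every alternative. For IL-4 against unstimulated cells 74 of 87 calls were kept throughout, and for LPS with IFNg 132 of 147. Depth limits genes with few counts, such as Arg1 with LPS and IFNg.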
